A study of Mus musculus with 10 samples.

Results

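Clustered protocadherins are cell-surface adhesion proteins encoded by the alpha, beta and gamma gene arrays, which lie in tandem on the plus strand of mouse chromosome 18. They were taken as all protein-coding genes of the deposited table whose symbol is Pcdha, Pcdhac, Pcdhb, Pcdhga, Pcdhgb or Pcdhgc followed by a number. The rule found 24 of the 28871 genes in the table: 22 genes of the beta array and 1 row for each of the alpha and gamma arrays. The RNA came from the whole hippocampus of wild type male C57BL/6J mice, 2 months old. In 5 samples the mice had received Visudyne, a formulation of the photosensitizer verteporfin, into the cisterna magna, and in 5 control samples vehicle. In both groups red light of 689 nm was then applied above the intact skull, a procedure meant to ablate the lymphatic vessels of the meninges. It was repeated after 2 weeks, and the hippocampus was taken 2 weeks after the last procedure. The labels do not say that each sample is a single animal, so p-values measure the spread between these samples.

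In the alpha and gamma arrays each variable exon has its own promoter and encodes the whole extracellular part of an isoform, and it is spliced to constant exons that give all isoforms of the array the same cytoplasmic end. Beta genes have no constant exons, and each encodes a complete protein. A neuron expresses a small, largely random set of these isoforms, a choice that depends on the DNA-binding protein CTCF, on cohesin and on DNA methylation of the promoters. The proteins bind like to like between cells and let a neuron tell its own branches from those of others. Whole hippocampus sums over the choices of all its cells, and in such bulk samples fewer expressing cells and less RNA per cell cannot be told apart.

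The deposited rows resolve the beta array gene by gene but not the alpha and gamma arrays. The GENCODE M21 annotation (GRCm38, the assembly of mm10) holds 14 alpha, 22 beta and 21 gamma genes under the rule, from position 36930184 to 37841873 of chromosome 18. All 22 beta genes had a row, against 1 of 14 alpha and 1 of 21 gamma genes. The 33 genes without a row have Ensembl numbers of 102206 or higher, while the highest number in the whole table is 99330. The row of the alpha array (ENSMUSG00000007440) carries the symbol Pcdha11 in M21, which gives that symbol to a second identifier as well, and the row of the gamma array (ENSMUSG00000023036) carries Pcdhgc4. Which isoforms were summed into these rows is not given in the sources used here, so they are called the alpha row and the gamma row, and neither is read as a single isoform. In M21 the gene model of the alpha row has 2499 exonic bases outside the exons of other members and that of the gamma row 3477, and both share constant exons with the rest of their array. The C-type isoforms Pcdhac1, Pcdhac2, Pcdhgc3 and Pcdhgc5, which are known to be expressed more uniformly than most others, had no row of their own. Pcdhgc4 is of the C type too, but the gamma row is not read as that isoform. Whether reads of C-type isoforms were counted in the alpha and gamma rows is not known.

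Over both groups the 24 rows held 0.0584 to 0.0648% of all counts, and the gamma row alone held more counts than all 22 beta rows. In Visudyne samples the summed counts were 59.8 ± 1.47% gamma, 27.1 ± 1.07% beta and 13.1 ± 0.422% alpha, against 60.0 ± 1.43%, 27.2 ± 0.997% and 12.7 ± 0.939% in vehicle samples (SD, n = 5 each). These are shares of counts and not levels per length. The ratio of gamma to beta counts ranged from 2.05 to 2.36 over the 10 samples.

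The totals of the arrays were similar in both groups. Values are given as CPM, the count scaled to a common library total after correction by the trimmed mean of M-values (TMM). A positive log2 fold change means a higher value with Visudyne. The alpha row had 81.8, 78.3, 87.5, 80.5 and 78.6 CPM in Visudyne samples 3, 6, 9, 12 and 15, against 69.3, 83.1, 81.0, 88.8 and 74.0 CPM in vehicle samples 1, 4, 7, 10 and 13. The Visudyne values lay inside the vehicle range, whose ends were vehicle 1 and vehicle 10. The log2 fold change of the alpha row was 0.04 (SE 0.07, 95% interval -0.10 to 0.18, edgeR adjusted p = 0.9999), and without vehicle 1 it was -0.0068. The summed beta rows measured 166.3, 161.6, 178.9, 165.0 and 166.7 CPM in Visudyne samples, against 162.9, 174.9, 171.1, 168.6 and 167.0 CPM in vehicle samples. The lowest and the highest sum were both Visudyne samples, so the vehicle range lay within the Visudyne range. The gamma row had 382.6, 367.4, 370.7, 388.4 and 341.2 CPM in Visudyne samples, against 384.8, 369.3, 366.6, 393.1 and 350.8 CPM in vehicle samples. Each group of the gamma row had a single low sample, Visudyne 15 and vehicle 13, and the groups overlapped. Its log2 fold change was -0.01 (SE 0.05, edgeR adjusted p = 0.9999), and the 95% interval of its fold change ran from 0.923 to 1.07. That interval leaves room for a fall of some percent or a rise of some percent, and the interval of the alpha row runs from 0.931-fold to 1.13-fold.

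**Figure D1:**
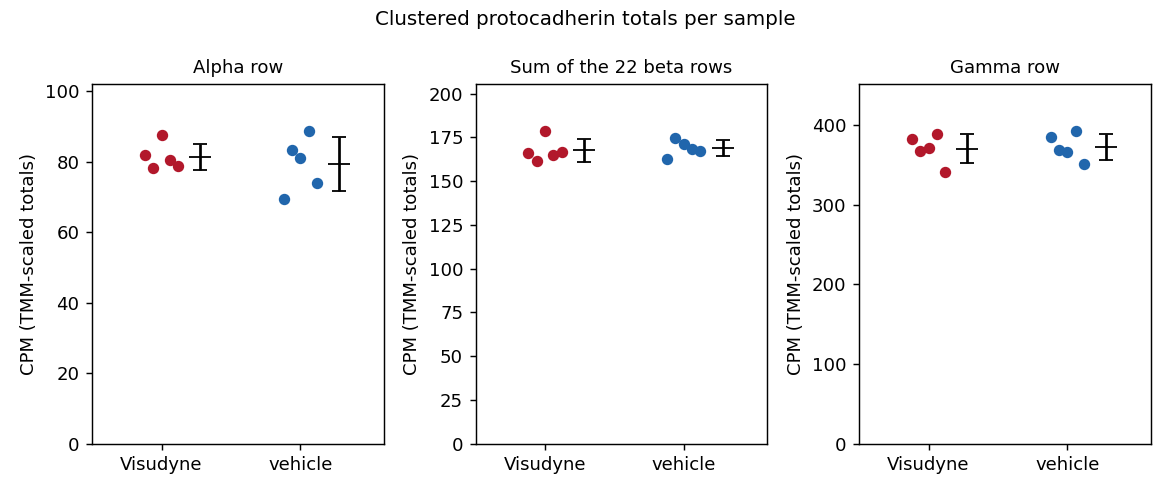
CPM of the alpha row, of the sum of the 22 beta rows and of the gamma row in each sample (points; Visudyne left, vehicle right), with the mean and SD of 5 samples as a bar beside them. The groups overlap in each panel, with means of 81.3 and 79.2 CPM for alpha, 167.7 and 168.9 CPM for beta and 370.1 and 372.9 CPM for gamma.

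No clustered protocadherin passed the test. By edgeR's quasi-likelihood test, 0.021% of the 19093 genes that passed the low-count filter were called at an adjusted p under 0.05, and 0 of the 24 members, each with an edgeR adjusted p of 0.9999. At an unadjusted p under 0.05 the test gave 1 of 24 members, Pcdhb14, against 1.7% of all genes. That member was lower, as 0.56% of all genes were, and 0 members were higher, where 1.14% of all genes were. Limma voom and DESeq2 likewise called 0 members and gave 1 at an unadjusted p under 0.05. Fold changes were positive in 14 members and negative in 10, against 51.1% positive among all genes tested, and in 20 members they were smaller than their SE, as in 78% of all genes. The median log2 fold change of the 22 beta genes was 0.0085, against 0.0022 for all genes tested, with 13 positive and 9 negative. The alpha row (0.04) and the gamma row (-0.01) stood for a single row each, so that no median over isoforms exists for these arrays.

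**Figure D2:**
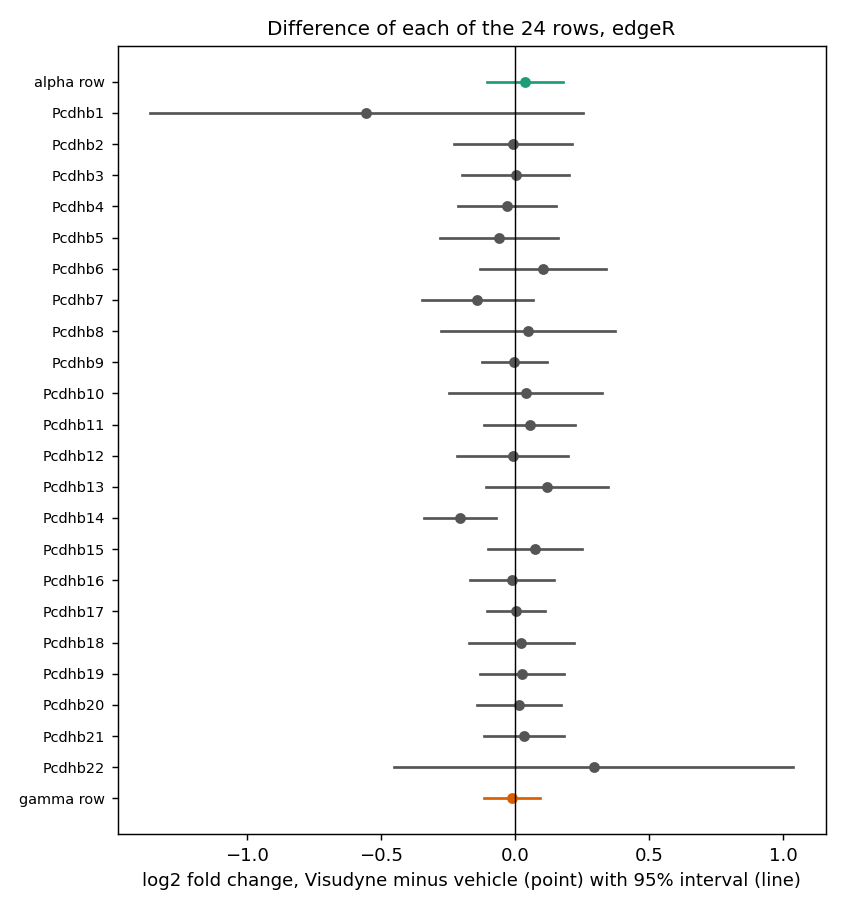
Log2 fold change, Visudyne minus vehicle, of each of the 24 rows from edgeR (points) with its 95% interval (lines), in the order of the genes along the chromosome from top to bottom; the alpha row is green, beta genes grey and the gamma row orange. The interval includes 0 in 23 rows and lies below 0 in Pcdhb14, and it is widest in Pcdhb1 and Pcdhb22, the rows of lowest count.

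Pcdhb14 (ENSMUSG00000044043, chromosome 18, 37447656 to 37456350, mm10, plus strand, a single exon in M21) was lower in Visudyne than in vehicle samples by value, without passing the adjusted threshold. It measured 13.3, 12.7, 13.96, 11.1 and 13.5 CPM in Visudyne samples 3, 6, 9, 12 and 15, against 15.2, 14.8, 15.3, 14.6 and 14.6 CPM in vehicle samples 1, 4, 7, 10 and 13. All 5 Visudyne samples lay below all 5 vehicle samples, which was true of 0.115% of all genes tested and of no other member. The log2 fold change was -0.21 (SE 0.06, 95% interval -0.34 to -0.07, unadjusted p = 0.0059, edgeR adjusted p = 0.9999). Visudyne 12 was the lowest sample, and without it the log2 fold change was -0.15. Relative to its own array, the gene took 7.70 ± 0.556% of the beta counts in Visudyne samples and 8.84 ± 0.328% in vehicle samples (SD, n = 5 each), without overlap. This share uses the same Pcdhb14 counts as the CPM values. The beta total varied little (coefficient of variation 3.18% over the 10 samples), so the share is no separate evidence. Of the flanking genes, Pcdhb13 had a log2 fold change of 0.12 (SE 0.10) and Pcdhb15 one of 0.07 (SE 0.08), both chosen for their position. Pcdhb14 was known as the member of smallest p when this family was chosen, so its rank within the family is no separate evidence.

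The summed level of 12 meningeal fibroblast markers did not overlap between the groups in the same libraries, with 142.6 to 178.3 CPM in Visudyne samples and 60.1 to 138.4 CPM in vehicle samples. Among single genes tested, 0.319% had all Visudyne samples above all vehicle samples, and no such share was computed for sums. Of these 12 markers, 1 was called, the collagen gene Col1a1 (edgeR adjusted p = 0.0485), where 0.021% of all genes were called. That call lay close to the threshold: without Visudyne 3, Visudyne 6 or vehicle 7, 0 genes of the whole table were called higher. At an unadjusted p under 0.05, 7 were higher, where 1.14% of all genes were, and all 12 were positive, where 51.1% of all genes were. The markers did not differ evenly: Dcn (log2 fold change 0.18), Slc6a13 (0.18), Slc22a6 (0.15) and Lum (0.04) each had a value smaller than its SE. The list was drawn up with earlier results of these data known, so these counts are no separate evidence. The part of these 12 markers in the Pcdhb14 values was not tested.

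Pcdhb7 and Pcdhb1 were next by p among the members. For Pcdhb7 the values were 8.53, 7.57, 8.96, 10.8 and 9.15 CPM in Visudyne samples, against 10.57, 8.58, 10.51, 10.54 and 9.46 CPM in vehicle samples. The highest value of this gene belonged to Visudyne 12 and the groups overlapped (log2 fold change -0.14, SE 0.10, edgeR adjusted p = 0.9999). Without Visudyne 6, its lowest sample, the log2 fold change was -0.086 (edgeR unadjusted p = 0.366), and without Visudyne 12 it was -0.21 (edgeR unadjusted p = 0.0258, adjusted 0.946). With sets of 3 consecutive sample numbers as a block, a fit added after the data were seen, it was -0.15 (edgeR unadjusted p = 0.0461, adjusted 0.911), which makes 2 members at an unadjusted p under 0.05. Pcdhb1, the first gene of the array, rested on very few counts: 10, 7, 7, 13 and 11 in Visudyne samples, against 13, 16, 18, 5 and 14 in vehicle samples. With so few counts the 95% interval of its fold change ran from 0.388 to 1.19 (log2 fold change -0.56, SE 0.37, edgeR adjusted p = 0.9999).

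Pcdhb22, the last gene of the array, varied between samples more than any other member in the fitted dispersion. It measured 1.11, 1.49, 1.198, 0.487 and 0.941 CPM in Visudyne samples, against 1.39, 0.657, 1.13, 0.652 and 0.443 CPM in vehicle samples. High and low samples occurred in both groups, and the log2 fold change was 0.29 (SE 0.34, edgeR adjusted p = 0.9999). Its biological coefficient of variation was 37.5%, against a median of 10.8% over the beta genes and 11.3% over all genes tested. Its M21 exons overlap those of Pcdhb21 by 455 bases on the same strand, so that reads there fit both genes. Pcdhb21 itself was steady, with 6.38 ± 0.195 CPM in Visudyne and 6.24 ± 0.431 CPM in vehicle samples (SD, n = 5 each).

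**Figure D3:**
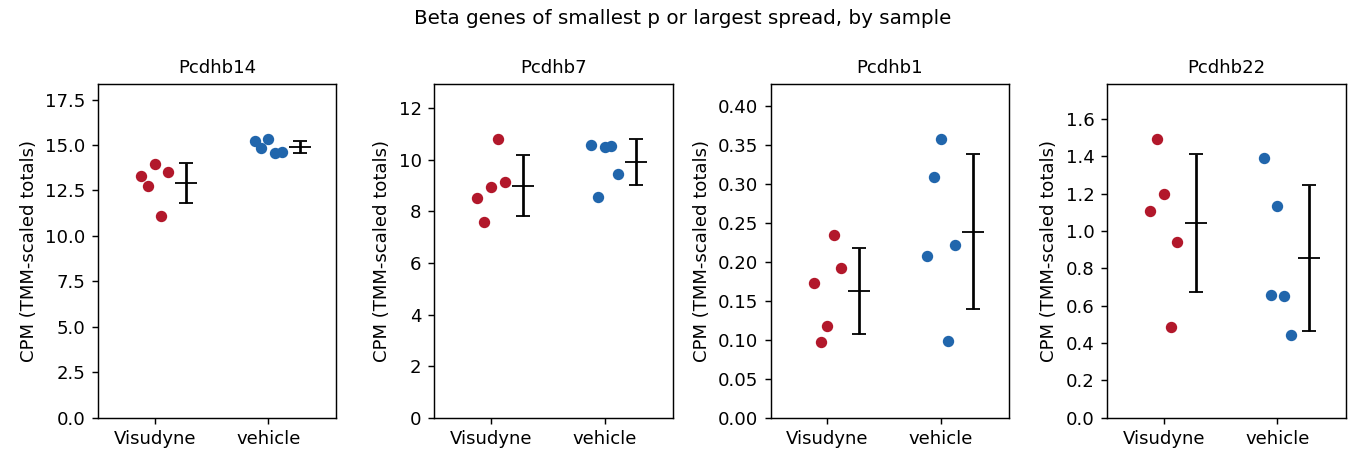
CPM of Pcdhb14, Pcdhb7, Pcdhb1 and Pcdhb22 in each sample (points; Visudyne left, vehicle right) with the mean and SD of 5 samples as a bar beside them. The groups are apart in Pcdhb14, whose Visudyne samples sit between 11.1 and 13.96 CPM and vehicle samples between 14.6 and 15.3 CPM, and overlap in the other panels.

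The remaining 21 members, without Pcdhb14, Pcdhb1 and Pcdhb22, had log2 fold changes between -0.14 and 0.12. Their 95% intervals reached from -0.35 at the lowest end to 0.37 at the highest. The narrowest intervals belonged to abundant rows. Pcdhb17, the beta gene with the most counts, averaged 17.8 ± 0.847 CPM in Visudyne and 17.8 ± 0.723 CPM in vehicle samples (SD, n = 5 each; 95% interval of the log2 fold change -0.11 to 0.11). Pcdhb9 averaged 12.1 ± 0.679 CPM in Visudyne and 12.2 ± 0.535 CPM in vehicle samples (95% interval -0.13 to 0.12).

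Levels differed far more between beta genes than between groups. Per kilobase of annotated exon, and averaged over all 10 samples (SD over samples), Pcdhb9 (3.98 ± 0.189 CPM per kilobase) and Pcdhb17 (3.82 ± 0.159) were highest. Pcdhb16 followed with 2.97 ± 0.235 and Pcdhb7 with 2.70 ± 0.313 CPM per kilobase. The lowest were Pcdhb1 at 0.0776 ± 0.0333, Pcdhb22 at 0.144 ± 0.0564 and Pcdhb6 at 0.771 ± 0.0770 CPM per kilobase. Of the 22 genes, 16 lay between 1 and 3 CPM per kilobase. In the order of these levels only 2 of the 21 neighbouring pairs were apart in all samples, Pcdhb17 above Pcdhb16 and Pcdhb6 above Pcdhb22. The ranges of the other neighbours in the order overlapped. Overlap of ranges does not show equal levels, and pairs were not compared within samples. The profile over the array was alike from sample to sample, with Spearman correlations of 0.906 to 0.985 over the 22 genes in all 45 pairs of samples, a description of levels that share gene lengths and annotation.

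Levels were also set against the order of the genes along the chromosome. The first 11 beta genes, Pcdhb1 to Pcdhb11, had a median level of 1.35 CPM per kilobase and the last 11, Pcdhb12 to Pcdhb22, one of 2.11, and the Spearman correlation of array position with level was 0.375 over 22 genes. These levels depend on gene length, and M21 and RefSeq (GRCm38.p6) differ in where some transcripts end. With RefSeq spans the medians of the first and last 11 genes were 1.35 and 2.63 CPM per kilobase, and the correlation with position was 0.496. With mean counts in place of levels the correlation was 0.492. None of these correlations was tested. By RefSeq length 14 genes stayed within 5% of their level and 7 were more than 1.1-fold higher. Among these 7, Pcdhb14 had 4.05 CPM per kilobase by RefSeq span against 1.601 by M21 exon, and Pcdhb17 5.45 against 3.82. By RefSeq span the order began with Pcdhb17, then Pcdhb14, then Pcdhb9. The length used by the authors is not given in the sources used here.

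**Figure D4:**
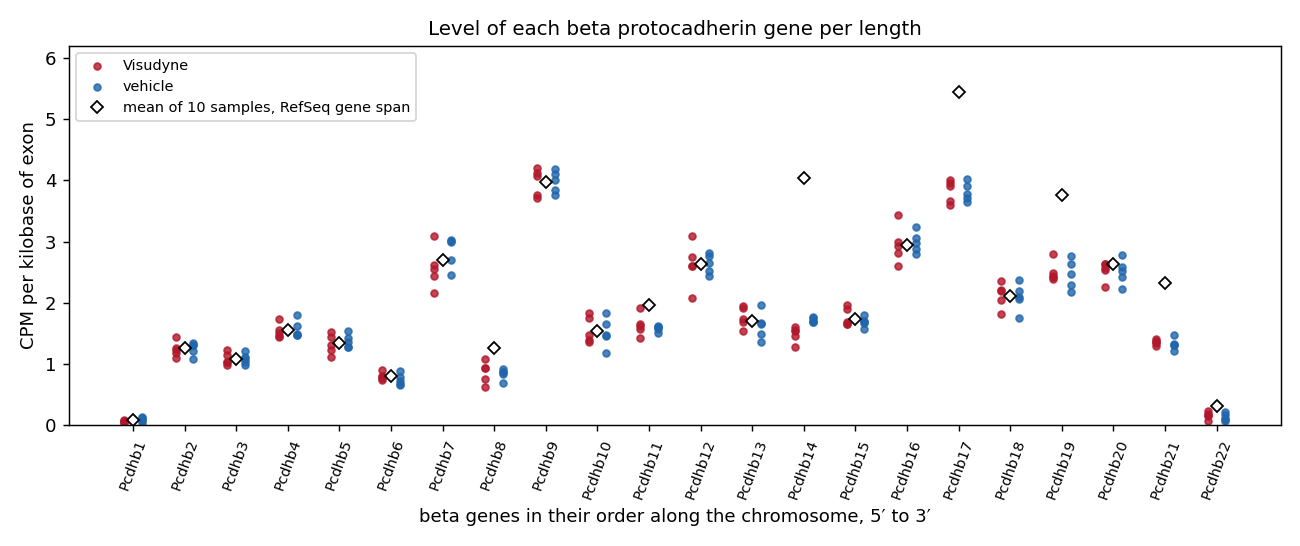
CPM per kilobase of M21 exon of the 22 beta genes in their order along the chromosome, each sample a point (Visudyne left, vehicle right); open diamonds show the mean of 10 samples with the RefSeq gene span as length. Pcdhb9 and Pcdhb17 stand highest by M21 length, Pcdhb1 and Pcdhb22 lie near 0, and points of both groups overlap.

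Beta genes resemble each other in sequence, which bears on how well reads could be assigned. In the M21 transcripts, 0 to 22.5% of a gene's stretches of 31 bases occurred in another member (median 11.8%). Pcdhb1 shared none, Pcdhb14 shared 4.41%, and Pcdhb12 shared most, mainly with its neighbour Pcdhb11 (14.8%). These shares depend on the transcript length: Pcdhb14 has 8695 exon bases in M21 against 3438 by RefSeq. Its low share is therefore not read as better assignment of its reads. In 21 of the 22 genes the coefficient of variation over the 10 samples exceeded that from counting error alone, and it ranged from 4.17% in Pcdhb17 to 42.8% in Pcdhb1 (median 9.11%). The share of all genes with such an excess is not given here, so the count is not a trait of beta genes. By biological coefficient of variation, 8 of the 22 lay above the median of all genes tested (10.8% as beta median, 11.3% over all genes).

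The gamma row was set against Malat1 across samples. The nuclear noncoding RNA Malat1 had 3143, 4484, 3933, 2127 and 6334 CPM in Visudyne samples 3, 6, 9, 12 and 15, against 2017, 4517, 4407, 3212 and 5340 CPM in vehicle samples 1, 4, 7, 10 and 13. Visudyne 15 and vehicle 13, the highest in Malat1, were the lowest of their groups in the gamma row. Over the 10 samples the gamma row and Malat1 had a Pearson r of -0.93 (permutation p = 0.00012, adjusted 0.00072 over 6 relations) and a Spearman rho of -0.87 (permutation p = 0.0024, adjusted 0.0072). Without Visudyne 15 and vehicle 10, the samples farthest from the median of the gamma row, r was -0.95. The gamma row was also close within neighbouring sample numbers (Visudyne 15 and vehicle 13, for example), and the permutation p treats the 10 samples as independent. The relation to Malat1 was not particular to the gamma row. Of all other genes tested, 6.58% were related to Malat1 at least as strongly in either direction (1257 of 19092, 446 of them negative). For the alpha row and Malat1 no relation was detected (r = 0.02, permutation p = 0.957; rho = -0.08, permutation p = 0.840; r = -0.41 without vehicle 1 and vehicle 10), and beta genes had r between -0.70 for Pcdhb12 and 0.78 for Pcdhb10. The alpha and gamma rows had r = 0.27 with each other (permutation p = 0.456; rho = 0.38, permutation p = 0.281; r = 0.48 without vehicle 1 and vehicle 10). All 6 relations were chosen after values had been seen. Malat1 itself averaged 4004 ± 1575 CPM in Visudyne and 3899 ± 1297 CPM in vehicle samples (SD, n = 5 each; edgeR adjusted p = 0.9999).

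**Figure D5:**
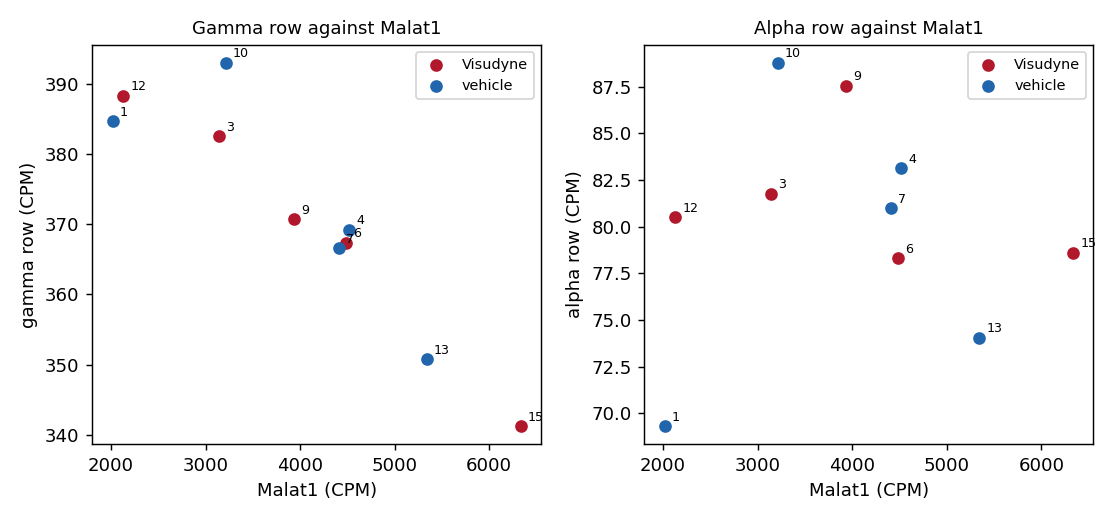
CPM of the gamma row (left) and of the alpha row (right) against CPM of Malat1, each point a sample with its sample number, Visudyne red and vehicle blue; the vertical axes do not start at 0. The gamma row is lower where Malat1 is higher in both groups (r = -0.93 over 10 samples), while the alpha row has r = 0.02.

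Noncoding genes inside the arrays also had rows. Gm10545, an antisense gene on the minus strand within the alpha array, had 1.71, 1.92, 2.26, 1.53 and 3.47 CPM in Visudyne samples, against 0.895, 2.01, 2.11, 1.78 and 1.96 CPM in vehicle samples. Visudyne 15 was the highest and vehicle 1 the lowest, and the other samples overlapped (log2 fold change 0.32, SE 0.26, edgeR adjusted p = 0.9999). Its log2 fold change was 0.086 without Visudyne 15 and 0.15 without vehicle 1. Whether counting used strand is not given, and overlap of Gm10545 exons with those of the alpha array was not measured. It is therefore not known whether reads of the sense array were counted for this antisense gene. Gm10545 and the alpha row had r = 0.28 (permutation p = 0.423; rho = 0.26, permutation p = 0.472; r = -0.06 without vehicle 1 and vehicle 10). Gm10544, also on the minus strand in the alpha array, had r = 0.12 with the alpha row (permutation p = 0.744; rho = -0.12, permutation p = 0.758; r = -0.26 without vehicle 1 and vehicle 10). Gm26672, on the minus strand of the gamma array, had r = -0.90 with the gamma row (permutation p = 0.00045, adjusted 0.0013). The rho was -0.87 (permutation p = 0.0023, adjusted 0.0072), and r was -0.96 without Visudyne 15 and vehicle 10. However, 7.68% of all other genes were related to Gm26672 at least as strongly in either direction (1467 of 19092, 675 of them negative). Gm26672 rested on 22 to 64 counts a sample. It was lowest in vehicle 1 and Visudyne 12 (0.351 and 0.469 CPM) and highest in vehicle 13 and Visudyne 15 (1.01 and 0.993 CPM). The same samples were lowest and highest in Malat1. The relation of Gm26672 to the gamma row was not tested apart from that of Malat1. It too was chosen after values had been seen. Its permutation p treats the 10 samples as independent, though the gamma row was close within neighbouring sample numbers. Of 34 tested genes within 500 kb of the arrays 0 passed in either direction, with 19 positive, 15 negative and a median of 0.01. Those of smallest p, besides Gm10545, were the splicing factor gene Ik (log2 fold change -0.08, SE 0.05) and Hars2, a mitochondrial histidyl-tRNA synthetase (-0.07, SE 0.05).

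Genes that act on the arrays or on their proteins did not pass either, in lists drawn up by role. Of 11 genes of CTCF, cohesin and its loaders and releasers, 0 passed, with 2 positive, 9 negative and a median log2 fold change of -0.04, against 0.0022 for all genes tested. Ctcf, given for its role, averaged 52.8 ± 2.87 CPM in Visudyne and 52.5 ± 1.66 CPM in vehicle samples, and the cohesin loader genes Mau2 (log2 fold change -0.07, SE 0.04) and Nipbl (0.08, SE 0.07) had the smallest p. The Nipbl value was 0.024 without vehicle 1 and 0.039 without Visudyne 15. Of 13 genes of DNA methylation and chromatin silencing 0 passed, with 7 positive, 6 negative and a median of 0.0055. Smchd1, which silences clustered protocadherins and the inactive X chromosome, averaged 65.8 ± 3.06 CPM in Visudyne and 63.8 ± 2.89 CPM in vehicle samples, and the histone demethylase gene Kdm1a (-0.05, SE 0.05) and Wiz, a zinc finger partner of histone methyltransferases (0.05, SE 0.05), had the smallest p. These means are given with their SD over 5 samples a group.

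Of 28 genes for shedding, trafficking and signalling of protocadherins 0 passed, with 9 positive, 19 negative and a median log2 fold change of -0.03. Ptk2b, a kinase that protocadherin tails inhibit, averaged 661 ± 31.2 CPM in Visudyne and 702 ± 52.0 CPM in vehicle samples (SD, n = 5 each; log2 fold change -0.09, SE 0.06). Vps16, an endolysosomal sorting gene, averaged 41.1 ± 0.779 CPM in Visudyne and 43.0 ± 0.902 CPM in vehicle samples (-0.06, SE 0.04). Of 11 tested protocadherins outside the arrays, which have genes of their own elsewhere, 0 passed, with 7 positive, 4 negative and a median of 0.01. Pcdh18 averaged 4.31 ± 0.341 CPM in Visudyne and 4.87 ± 0.302 CPM in vehicle samples (-0.17, SE 0.08). Pcdh20, next by p in this list (edgeR unadjusted p = 0.269), had a log2 fold change of -0.14 (SE 0.12). The Pcdh20 value was -0.074 without Visudyne 6, -0.22 without vehicle 4 and -0.054 without vehicle 10. Pcdh1, which lies downstream of the gamma array on the opposite strand, averaged 264.6 ± 8.54 CPM in Visudyne and 262.8 ± 13.3 CPM in vehicle samples. The edgeR adjusted p was 0.9999 for each gene named in these lists.

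Library totals lay between 51165271 and 68895223 estimated counts. The libraries carried the markers of hippocampal tissue: all 12 neuronal markers listed were tested, and their sum ranged from 3346 to 3707 CPM in Visudyne and from 3482 to 3778 CPM in vehicle samples. Choroid plexus markers summed to 26.9 to 53.4 CPM in Visudyne and to 29.2 to 219.8 CPM in vehicle samples, where the highest sum belonged to vehicle 7 and the next was 44.7 CPM. Most of the sum in vehicle 7 was Ttr, at 179.2 CPM against 4.48 to 16.03 CPM in the other vehicle samples. Summed astrocyte markers (4302 to 5116 CPM in Visudyne, 4413 to 5013 CPM in vehicle) and microglia markers (217 to 267 CPM in Visudyne, 212 to 266 CPM in vehicle) overlapped. Overlap was also seen in sums of oligodendrocyte markers (1768 to 2568 CPM in Visudyne, 1791 to 2649 CPM in vehicle), interneuron markers (576 to 771 CPM in Visudyne, 595 to 686 CPM in vehicle) and endothelial and mural markers (173 to 228 CPM in Visudyne, 178 to 231 CPM in vehicle). Markers of serotonergic neurons, cells known for the alpha isoform Pcdhac2, summed to 12.3 to 15.6 CPM in Visudyne and to 12.8 to 13.8 CPM in vehicle samples, with 3 of 5 tested and Slc6a4 and Fev near 0.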

How the data were processed

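Libraries came from a kit for stranded total RNA (labels' protocols). Per the submitters' processing notes, the authors' deposited values are estimated counts per gene from Salmon on mm10; the sources used here do not give versions, annotation release or strand setting. They are whole numbers, so that rounding changed nothing. Symbols, positions and lengths came from GENCODE M21, which matched 28564 of 28871 identifiers.

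Counts were tested with edgeR 4.0.16 (R 4.3.3): default filter on low counts (19093 genes left, all 24 members among them), TMM factors, quasi-likelihood F-test, no covariate, Benjamini-Hochberg adjustment over all genes and a threshold of 0.05. SEs were derived from the F statistics. The procedure was tested on simulated data. Relations across samples used 100000 permutations, two-sided. Cluster sums and medians were given no test.

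Members and lists were chosen with earlier results of these data known. Genes named are the alpha and gamma rows, the beta genes of smallest p and of highest and lowest level, and those of smallest p per list; others are said to be chosen by role, position or value. Alternatives were size factors by relative log expression or by upper quartile, a filter of 1 CPM in 5 samples or none, DESeq2 1.42.0, limma 3.58.1 voom, the sample number as covariate, leaving out each sample and, added after the data were seen, sets of 3 consecutive sample numbers as a block.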

Additional observations from a re-analysis of the deposited data

Results flagged for a closer look

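Over 50 groups of 5 samples, those of the 24 members and of the beta total in each treatment group, 2 values stood apart from the other 4 samples of their group by Dixon's ratio (critical value 0.71), where chance alone gives about 1 in 20 groups. Pcdhb19 in Visudyne 9 measured 19.9 CPM, and the next sample of its group 17.8 CPM (ratio 0.743). Pcdhb20 in Visudyne 15 measured 8.02 CPM, and the next sample of its group 9.05 CPM (ratio 0.747).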

How the results depend on the processing

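The count of members called stayed at 0 under all 18 alternatives of the test, and the count at an unadjusted p under 0.05 was 1, except without Visudyne 12 (range 1 to 2 over omitted samples) and with the block below, where it was 2. Genes called over the whole table were 4 higher and 0 lower as reported, 2 higher with upper-quartile factors, 19 higher with the sample number as covariate, and 16 higher and 2 lower with DESeq2. Over omitted samples they ranged from 0 to 4 higher and from 0 to 1 lower. The log2 fold change of Pcdhb14 was -0.21 to -0.19 under other settings and -0.24 to -0.15 over omitted samples, and that of Pcdhb22 was 0.51 with the sample number and 0.13 to 0.55 over omitted samples. Among genes of the lists, omitted samples gave Ptk2b -0.13 to -0.050, Kdm1a -0.072 to -0.031, Smchd1 0.021 to 0.070, Wiz 0.033 to 0.096, Ik -0.098 to -0.049 and Hars2 -0.11 to -0.049. The median of the beta genes ranged from -0.017 to 0.028 over omitted samples. Values near 0 changed sign: the gamma row had 0.00075 with the filter of 1 CPM and 0.0026 with the sample number, Pcdhb9 0.0015 with upper-quartile factors, 0.00055 without filter and 0.0073 with the filter of 1 CPM, Pcdhb17 -0.0010 with DESeq2 and Ctcf -0.0046 with the sample number. Over omitted samples the alpha row ranged from -0.0068 to 0.085, the gamma row from -0.024 to 0.014, Pcdhb9 from -0.023 to 0.017, Pcdhb17 from -0.013 to 0.023 and Ctcf from -0.010 to 0.035. With RefSeq spans, added after the data were seen, levels were 5.45 for Pcdhb17, 4.05 for Pcdhb14 and 0.310 CPM per kilobase for Pcdhb22. These settings refit the same samples, so their similarity is no separate evidence. The groups share no sample number, and the labels name no sets, but the numbers interleave in 5 sets of 3. Across genes, deviations from the group means of the Visudyne and the vehicle sample of a set correlated at 0.109 to 0.507, and 4 of 10 samples correlated best with their own set. With these sets as a replicate block, added after the data were seen, 9 genes were called higher and 1 lower, and Pcdhb14 had -0.21 (edgeR adjusted p = 0.674). Low counts limit Pcdhb1 and Pcdhb22, and Pcdhb1 has no value with the filter of 1 CPM.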
